A study of Homo sapiens with 4 samples.

Results

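A set of 9 genes of mitosis was examined in poly(A) site counts from human cells with impaired Dicer, the ribonuclease that matures microRNAs: the cyclins CCNB1 and CCNA2, the cyclin-dependent kinase CDK1, the mitotic kinases PLK1, AURKA and BUB1, the anaphase activator CDC20, the topoisomerase TOP2A and the proliferation antigen MKI67. A poly(A) region is a short stretch of the genome in which reads end at the start of a poly(A) tail, and each gene was taken as all regions on its strand within a fixed hg19 window around it. The windows held 47 of the 31081 regions in the table. All 4 libraries came from DICER(ex5) cells, which carry a hypomorphic DICER, were derived from the human colon cancer line HCT116 and were grown in serum-containing McCoy's medium to between 75 and 95% confluence. No parental line or other control was analysed here, so the comparisons are between regions of a gene, between genes and between libraries. The sources used here do not say whether the line is a single clone. The design text calls the libraries biological replicates, but no label gives a separate culture date, so the spread between them may be partly technical. No region carries a gene name in the table, so the colon epithelial identity of the cells was not checked here, and a gene name stands for its window.

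Cyclin A2 and cyclin B1 bind and activate CDK1, whose activity brings cells into mitosis. PLK1 and Aurora kinase A drive spindle and centrosome maturation, BUB1 acts in the spindle assembly checkpoint at kinetochores, and CDC20 carries substrates such as cyclin B1 to the anaphase-promoting complex. Topoisomerase II alpha disentangles sister chromatids, and Ki-67, the product of MKI67, coats mitotic chromosomes and is stained as a marker of proliferation. Transcripts of these genes are known to accumulate in G2 and M phase, and alternative poly(A) sites in the last exon of a gene give messages with shorter or longer 3' ends.

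The libraries held 5211279, 2163977, 5713530 and 3984278 reads (libraries 1 to 4). The 9 genes took 0.252% to 0.265% of them. Levels are in CPM, reads scaled to 1000000 per library. Over the 31081 regions, libraries 1 and 2 correlated with Pearson's r = 0.97 on the log2(CPM + 1) scale, libraries 3 and 4 with 0.98, and every other pair with 0.84 to 0.87. Libraries thus stand apart in pairs, no label gives a batch, and values are given library by library. Of the 47 regions, 46 had reads in every library. Their width was 11 to 102 bases with a median of 32, and none was 5 bases or narrower.

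Except for CDC20, the level of each gene differed by less than 1.5-fold between any 2 libraries. Among these 8 the widest ratio was that of AURKA, at 0.675 (exact 95% interval for counting error 0.609 to 0.750) for library 3 against 2. The assay is built to read a transcript at its 3' end whatever its length, so levels are given in CPM without scaling by length. Reads primed inside a transcript would add to a gene's sum. Their part was not tested, so the order of the genes describes sums over windows. CCNB1 was the highest of the 9, with 504, 529, 550 and 544 CPM in libraries 1 to 4 (532 ± 20.5, SD, n = 4). PLK1 followed with 376, 403, 392 and 380 CPM (388 ± 12.3) and CCNA2 with 380, 366, 368 and 377 CPM (373 ± 6.74). These genes varied little, and the ranges of PLK1 and CCNA2 overlapped while CCNB1 lay above both in every library.

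CDK1 had 313, 364, 293 and 294 CPM (316 ± 33.0, SD, n = 4), highest in library 2. MKI67 had 287, 296, 283 and 269 CPM (284 ± 11.2). TOP2A had 272, 291, 218 and 219 CPM (250 ± 37.0). For TOP2A, libraries 1 and 2 lay above libraries 3 and 4. AURKA showed the same order, with 221, 262, 177 and 182 CPM (210 ± 39.5), and BUB1 was lower and steady at 110, 116, 118 and 113 CPM (114 ± 3.66). In these bulk samples fewer cells in mitosis and less RNA per cell cannot be told apart.

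In the order CCNB1, PLK1, CCNA2, CDK1, MKI67, TOP2A, AURKA, BUB1 and CDC20, the ranges of neighbours over the libraries were apart in 3 of 8 pairs: CCNB1 above PLK1 (ratio within libraries 1.31 to 1.43), CCNA2 above CDK1 (1.01 to 1.28) and AURKA above BUB1 (1.49 to 2.25). The ranges of CCNA2 and CDK1 were barely apart, as they had 792 and 787 reads in library 2. In 6 of the 8 pairs the order of the sums over all regions was the same in all 4 libraries. The exceptions were PLK1 against CCNA2, higher in 3 of 4 libraries, and BUB1 against CDC20, higher in 2 of 4. An exact sign-flip test of 4 libraries cannot go below a two-sided p of 0.13, so no test of the order is given. The median level of the 9 genes was 284 CPM. Over the 11100 loci with at least 100 reads it was 33.4 CPM, where a locus joins regions of a strand that lie within 5 kb. These medians are not like for like, as a gene window also sums regions over 5 kb from the next.

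**Figure D1:**
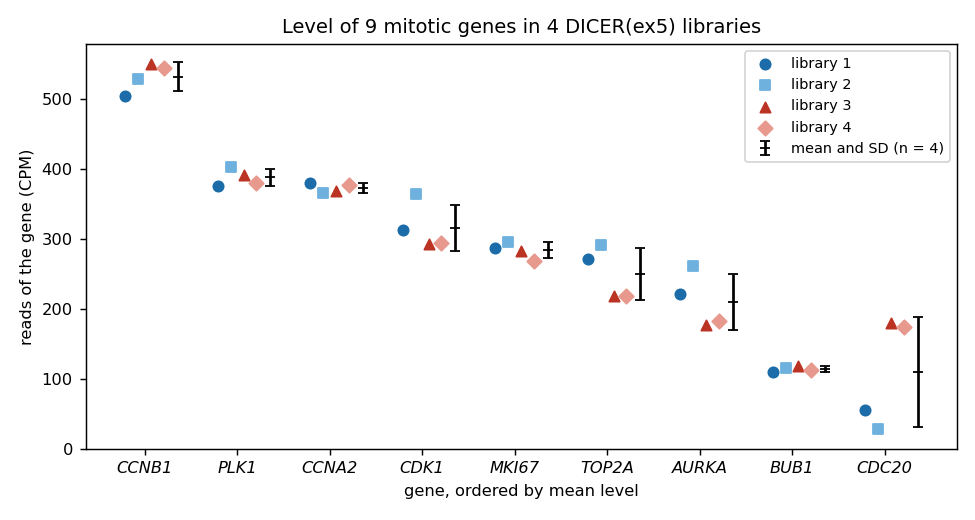
CPM (linear axis from 0) of each gene, with a point for each of the 4 libraries and a bar for the mean and SD (n = 4). Apart from CDC20, whose libraries run from 28.2 to 180 CPM, the highest library of a gene is at most 1.48 times its lowest.

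CDC20 differed between libraries by far more than the other 8 genes. Its only region, on the plus strand at chr1:43828855-43828905, had 292, 61, 1030 and 695 reads. This is 56.0, 28.2, 180 and 174 CPM (110 ± 78.9, SD, n = 4). Libraries 3 and 4 did not differ beyond counting error (ratio 0.968, interval 0.878 to 1.07), and both lay above libraries 1 and 2. Library 3 was 3.22-fold (2.82 to 3.68) above library 1 and 6.40-fold (4.94 to 8.42) above library 2. Library 2 was at 0.503 (0.375 to 0.665) of library 1. The intervals are exact 95% intervals that cover counting error alone. The mean was 128 CPM without library 1, 137 without library 2, 86.2 without library 3 and 88.2 without library 4.

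A level that differed over 1.5-fold either way was found for CDC20 in 5 of the 6 pairs of libraries, and for none of the other 8 genes in any pair. The share of all 11100 loci past this fold was 7.32% for library 2 against 1 and 4.93% for library 4 against 3. It was 21.2% for library 3 against 1, 20.7% for library 4 against 1, 30.8% for library 3 against 2 and 30.0% for library 4 against 2. A count of 1 in 9 genes is a smaller share than the last 4 of these and a larger one than the first. These shares are not like for like, as each of the 9 genes had 1951 reads or more, far above the minimum for a locus. Loci with few reads can pass this fold by counting error alone, and their part in the shares was not tested. CDC20 was not alone in the table: 128 of the 11100 loci had a ratio of library 3 to library 1 at or above its own, and 36 of the 3735 loci with at least 1000 reads did. Among those 3735 loci the median coefficient of variation over the libraries was 10.7%. It was 71.9% for CDC20 and 1.81% to 18.8% for the other 8 genes, with a median of 3.94% over the 9.

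**Figure D2:**
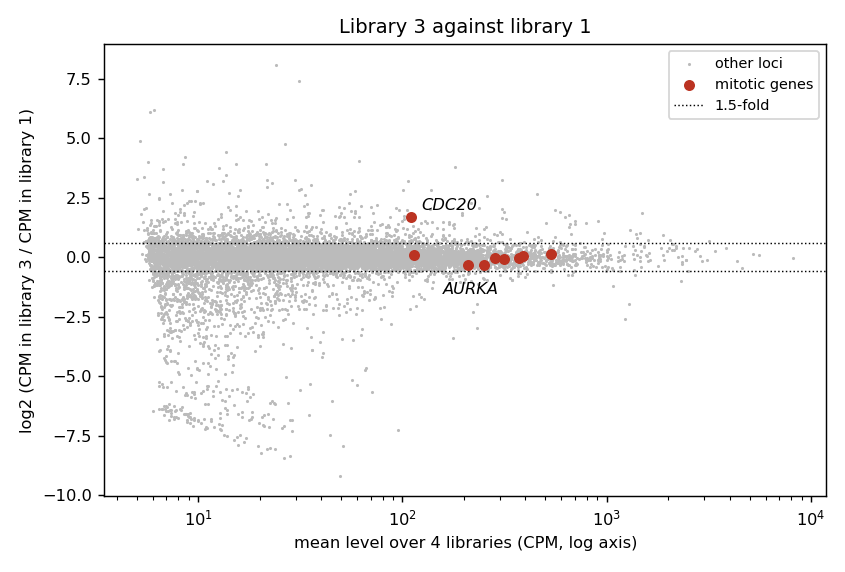
Log2 ratio of CPM in library 3 to library 1 against the mean CPM over the 4 libraries (log axis), for the 10998 of 11100 loci with reads in both libraries. Dotted lines mark 1.5-fold; CDC20 lies above the upper line at 1.69, and the other 8 mitotic genes lie between the lines.

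RefSeq (GRCh38.p14) places ELOVL1 next to CDC20. Beyond the CDC20 region, 155 bases lay between it and a region on the minus strand at chr1:43829061-43829108, so the ends of both transcripts point at each other. That minus-strand region had 256, 264, 203 and 216 CPM (235 ± 30.1, SD, n = 4). In this region libraries 3 and 4 lay below libraries 1 and 2, the reverse of CDC20. The ratio of CDC20 to it was 0.219, 0.107, 0.890 and 0.808 in libraries 1 to 4.

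The promoters of CDC20, of MKI67 and of CCNB1 are shown because these are the gene whose level differed most between libraries, the best known marker of the group and its most abundant member. Cell cycle genes of G2 and M phase are known to carry the CHR element, bound by repressor and activator complexes of the DREAM and MuvB type, and CCAAT boxes, bound by NF-Y. The sequences are RefSeq's for GRCh38.p14, from 250 bases before to 50 bases after the start of the gene, with TTTGAA (CHR) and CCAAT in capitals on either strand. Their positions are not on the build of the poly(A) regions. CDC20 lies on the plus strand (chr1:43358731-43359030), MKI67 on the minus strand (chr10:128126374-128126673) and CCNB1 on the plus strand (chr5:69166900-69167199).
CDC20: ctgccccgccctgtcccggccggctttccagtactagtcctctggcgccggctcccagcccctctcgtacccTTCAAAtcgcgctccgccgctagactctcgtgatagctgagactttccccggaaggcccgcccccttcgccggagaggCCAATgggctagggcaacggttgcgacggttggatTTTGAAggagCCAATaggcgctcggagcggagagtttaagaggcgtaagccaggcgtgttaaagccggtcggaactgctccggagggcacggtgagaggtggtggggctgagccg
MKI67: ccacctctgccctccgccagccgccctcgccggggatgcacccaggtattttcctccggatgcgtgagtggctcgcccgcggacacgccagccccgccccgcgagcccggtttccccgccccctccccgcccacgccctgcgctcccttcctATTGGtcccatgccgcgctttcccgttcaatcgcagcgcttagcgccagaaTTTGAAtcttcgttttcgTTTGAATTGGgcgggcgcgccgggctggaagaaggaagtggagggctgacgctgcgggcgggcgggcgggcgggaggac
CCNB1: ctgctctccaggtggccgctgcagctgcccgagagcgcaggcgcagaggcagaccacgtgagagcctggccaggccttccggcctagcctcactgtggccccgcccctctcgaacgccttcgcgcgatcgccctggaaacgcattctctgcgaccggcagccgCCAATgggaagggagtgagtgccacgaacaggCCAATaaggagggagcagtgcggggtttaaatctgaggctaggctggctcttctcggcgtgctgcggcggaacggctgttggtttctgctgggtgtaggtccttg

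The promoter table held 8 of the 9 genes. TTTGAA or its reverse complement was in 5 of the 8 (MKI67, TOP2A, CDK1, PLK1 and CDC20), against 15.2% of all 35116 promoters of that length. CCAAT or its reverse complement was in 8 of 8, against 34.6%. Both were in 5 of 8, against 5.90%. CDC20 had 2 matches of each, MKI67 2 of each, with 1 pair overlapping, and CCNB1 2 of CCAAT and 0 of TTTGAA. CDK1 has 2 entries with different starts and was counted once. Only TTTGAA was sought for the CHR, so a promoter without a match, such as that of CCNB1, is not shown to lack the element. The letters describe the promoters, and no binding was measured.

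The next question was where these transcripts end. A region passed if it had at least 10 reads in all and at least 5% of those of its gene. By this rule 22 of the 47 regions passed and 6 of the 9 genes had several. Of the 11100 loci, 45.7% had several. These shares are not like for like. Each of the 9 genes had 1951 reads or more over a whole window, while a locus needed 100 reads and ended at gaps over 5 kb. PLK1 and CDC20 had a single region each, and TOP2A had 6 regions of which only the most 3' one passed. At 4 of the 6 genes with several passing regions the most 3' one was the strongest (MKI67, CDK1, AURKA and CCNA2). At CCNB1 and BUB1 it was an upstream one. The share of all loci with the strongest region most 3' was not counted. The most 3' passing region held a median of 47.9% of the reads in passing regions at these 6 genes. It held 43.2% over the 5069 loci with several. Outside the windows, 3 regions of the same strand lay within 5 kb, 1 near PLK1 with 12.9 CPM and 2 near CCNA2 with 2.37 and 7.92 CPM on average.

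CCNB1 transcripts ended mostly at the upstream of 3 closely spaced regions. The strongest, at chr5:68473492-68473593 on the plus strand, had 367, 374, 440 and 438 CPM and took 76.0% ± 5.00 of the reads of the gene (SD, n = 4). The region ending 211 bases short of the most 3' one had 64.9, 82.7, 59.9 and 59.0 CPM (12.6% ± 2.26). The most 3' one, ending 503 bases beyond the strongest, had 58.3, 61.0, 47.8 and 43.4 CPM (9.94% ± 1.88). The strongest region was higher in libraries 3 and 4 than in libraries 1 and 2, and both downstream ones were lower. The ratio of both downstream regions to the strongest was 0.336, 0.384, 0.245 and 0.234 in libraries 1 to 4.

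CDK1 used a pair of ends 598 bases apart, and the upstream one varied more between libraries. The most 3' region, at chr10:62554585-62554618 on the plus strand, had 171, 179, 178 and 184 CPM (178 ± 5.55, SD, n = 4). The region ending 598 bases upstream (chr10:62553967-62554020) had 109, 138, 80.2 and 81.1 CPM (102 ± 27.3). Another passing region just upstream of it had 20.5, 26.8, 21.0 and 19.1 CPM. The ratio of the second region to the most 3' one was 0.636, 0.768, 0.450 and 0.440. The level of the longest form was therefore nearly equal over the libraries, while that of the shorter one was highest in library 2 and lowest in libraries 3 and 4.

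CCNA2 had 8 regions, of which 2 passed. The stronger, at chr4:122737589-122737616 on the minus strand, had 227, 221, 211 and 220 CPM (220 ± 6.65, SD, n = 4). The other, ending 915 bases upstream, had 109, 96.1, 108 and 107 CPM (105 ± 5.94). Their ratio was nearly constant, at 0.480, 0.435, 0.512 and 0.487. The 2 regions further 3', 729 and 951 bases beyond the stronger one, took 3.26% ± 1.11 and 1.62% ± 0.564 of the reads. RefSeq shows CCNA2 overlapping EXOSC9. Between both passing ends of CCNA2 lay 3 regions of the plus strand, with 20.5 ± 12.1, 111 ± 9.86 and 47.7 ± 4.57 CPM (SD, n = 4).

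The mitotic kinases differed in how many ends they used. PLK1, on the plus strand at chr16:23701665-23701697, had no second region in its window, with 1958, 872, 2237 and 1514 reads at this one. RefSeq shows PLK1 overlapping ERN2, and no region of the opposite strand lay in the window. AURKA used 2 ends 281 bases apart on the minus strand. The distal one (chr20:54944429-54944463) had 181, 217, 147 and 145 CPM and took 81.8% ± 1.70 of the reads (SD, n = 4). The proximal one had 40.3, 44.4, 29.9 and 37.4 CPM. The level of AURKA varied between libraries, but the ratio of the proximal to the distal region stayed between 0.204 and 0.259.

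BUB1 had 3 passing regions within 372 bases on the minus strand. The middle one, at chr2:111395393-111395428, had 67.9, 68.9, 76.3 and 71.8 CPM and took 62.3% ± 2.20 of the reads (SD, n = 4). The most 3' one had 15.9, 9.70, 16.3 and 14.1 CPM, lowest in library 2, where it rested on 21 reads (8.37% of the gene, Wilson 95% interval 5.54% to 12.5%). The most 5' of the 3 had 21.5, 33.3, 22.6 and 24.1 CPM, highest in library 2. Another region lay 12014 bases upstream and took 3.34% ± 0.589.

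TOP2A ended at a single main region, at chr17:38544763-38544814 on the minus strand, with 243, 250, 204 and 204 CPM (225 ± 24.5, SD, n = 4). Another 5 regions, 4064 to 10258 bases upstream of it, together held 10.8%, 14.1%, 6.34% and 7.10% of the reads of the gene in libraries 1 to 4. The strongest of these, at chr17:38555021-38555043, had 11.9, 17.6, 5.08 and 8.78 CPM. These upstream regions were higher in libraries 1 and 2 than in libraries 3 and 4 as a sum.

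MKI67 had the most regions of the 9 genes, 13 over 12409 bases, with 6 of them passing. Its summed level varied by only 3.94% (coefficient of variation over the libraries), but its reads were distributed differently. The most 3' region, at chr10:129894917-129894953 on the minus strand, had 91.5, 114, 77.2 and 79.8 CPM and took 31.8% ± 4.85 of the reads (SD, n = 4). It was highest in library 2. The next 3 regions, 1205, 1918 and 2477 bases upstream, had 28.2 ± 9.77, 57.1 ± 12.3 and 42.4 ± 5.35 CPM.

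Taken as a sum, those 3 regions of MKI67 held 40.0%, 33.1%, 54.1% and 53.8% of its reads in libraries 1 to 4, above the most 3' region in libraries 1, 3 and 4 and below it in library 2. The region at 1205 bases (chr10:129896122-129896184) had 20.0, 20.3, 39.9 and 32.6 CPM, and that at 1918 bases 57.0, 39.7, 64.9 and 66.8 CPM. Both were higher in libraries 3 and 4 than in libraries 1 and 2. Regions further upstream were weaker. The passing one at 4729 bases (chr10:129899646-129899701) had 17.8, 18.0, 13.1 and 11.0 CPM, or 5.26% ± 1.05 of the gene (SD, n = 4). It was higher in libraries 1 and 2 than in libraries 3 and 4. The 6 regions that lay 5956 to 10698 bases upstream together had 30.9, 26.3, 11.0 and 8.78 CPM. This is 10.8%, 8.89%, 3.89% and 3.26% of the gene. One of them had 0 of 1073 reads in library 4, which allows a share of up to 0.280% by the limit of 3 counts over the total, and of 0.357% by the upper Wilson 95% limit. These groups of MKI67 regions were chosen after their values were seen.

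The 2 most 5' regions of MKI67, 12335 and 12409 bases upstream, differed between libraries in opposite directions. The first (chr10:129907252-129907314) had 13.4, 14.8, 20.1 and 17.1 CPM. The second (chr10:129907326-129907395) had 18.6, 25.0, 8.40 and 7.78 CPM. The 3' ends of both lie within 100 bases of each other. Whether the contrast depends on where these regions were divided was not tested. With 5.90% of the reads of the gene the first lay just above the 5% minimum, and the second, with 4.76%, just below it. Counted in each library alone, libraries 1 and 2 had 6 regions with at least 5% of the gene, and libraries 3 and 4 had 5.

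**Figure D3:**
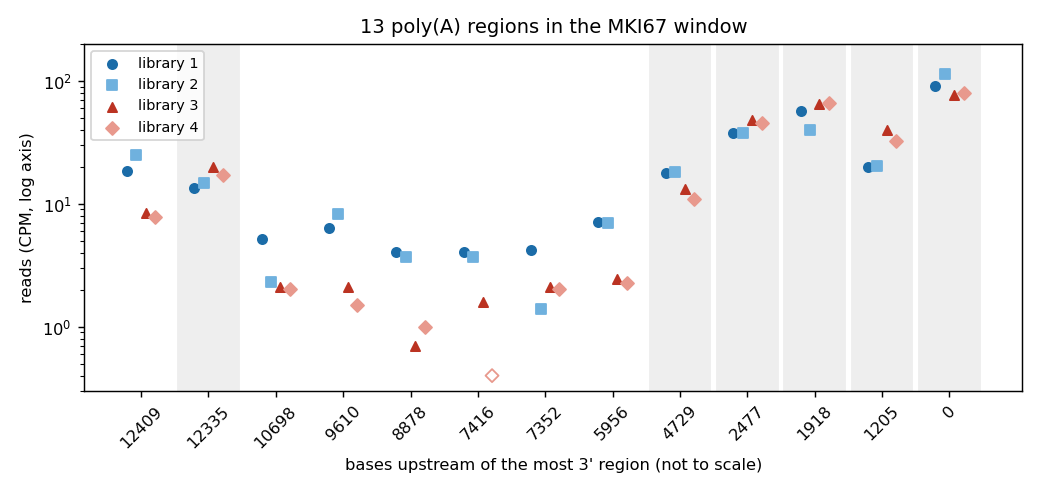
CPM (log axis) in each of 4 libraries at the 13 MKI67 regions, ordered from 5' (left) to 3' (right) by distance from the most 3' one; grey bands mark the 6 passing regions and the open symbol a count of 0. Libraries 1 and 2 lie above libraries 3 and 4 at most of the weak upstream regions and below them at 1205, 1918, 2477 and 12335 bases.

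Regions that did not pass held 6.14%, 6.67%, 4.00% and 3.86% of the reads of the 9 genes in libraries 1 to 4. Over all loci with at least 100 reads they held 2.29%, 2.39%, 1.68% and 1.70%, in nearly the same order. The sizes of these shares are not like for like. A gene window keeps weak regions over 5 kb from the next, such as that of BUB1 12014 bases upstream. Outside the windows such a region would be a locus of its own. Oligo(dT) primers can also bind A-rich stretches inside a transcript. No genome sequence of this build was used here, so the part of such priming at upstream regions was not tested.

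Fisher's exact test was used to compare libraries in the distal share, the percentage of a gene's reads in passing regions that came from the most 3' of them, with Benjamini-Hochberg adjustment over 5069 loci, on counts thinned to the smallest library. Such a test compares libraries, not conditions, and takes reads as independent molecules. Since it is not known whether duplicates were removed, its p-values cover counting error only and may be too small. Of the 36 tests of the 6 genes with several regions, 8 had an adjusted p under 0.05, all for MKI67, CDK1 and CCNB1. Each of the 8 set library 1 or 2 against library 3 or 4. Over all loci the share past the threshold was 10.6% for library 3 against 1, 8.86% for library 4 against 1, 15.8% for library 3 against 2 and 13.1% for library 4 against 2. Between libraries 1 and 2 it was 0.296% and between libraries 3 and 4 0.0592%, with none of the 6 genes called in either. Many of the loci had fewer reads than these 6 genes, and the test finds less at low counts. The shares over all loci are therefore not like for like with the count for the 6 genes.

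Before thinning, the distal share of MKI67 was 38.5%, 46.6%, 29.3% and 31.6% in libraries 1 to 4 (36.5% ± 7.80, SD, n = 4). In thinned counts it was 18.1 percentage points lower in library 3 than in library 2 (Fisher's exact test, adjusted p = 2.45e-08) and 15.6 points lower in library 4 than in library 2 (adjusted p = 4.59e-06). Against library 1, library 3 passed narrowly (adjusted p = 0.0468) and library 4 did not (adjusted p = 0.273; Fisher's exact tests). Library 2 was 10.1 points above library 1, with an adjusted p of 0.123 by the same exact test.

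The distal share of CDK1 went the other way, with 56.9%, 52.2%, 63.8% and 64.8% (59.4% ± 5.96, SD, n = 4). It was 12.7 points higher in library 4 than in library 2 (Fisher's exact test, adjusted p = 4.62e-05), 9.75 points higher in library 3 than in library 2 (adjusted p = 0.00410) and 8.86 points higher in library 4 than in library 1 (adjusted p = 0.0196). For CCNB1 it was 11.9%, 11.8%, 8.73% and 8.04% (10.1% ± 2.02), lower in library 4 than in library 1 (adjusted p = 0.00247) and library 2 (adjusted p = 0.0148; Fisher's exact tests). In each library's own value, the share of the longest form was higher in libraries 3 and 4 than in libraries 1 and 2 for CDK1 and lower for MKI67 and CCNB1. On counts that were not thinned, 12 tests passed instead of 8. They are those 3 genes in all 4 pairs of library 1 or 2 with library 3 or 4. The share of all loci past the threshold on such counts was not taken, so these 12 have no background beside them.

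AURKA, BUB1 and CCNA2 had no pair of libraries past the threshold, with lowest adjusted p of 0.222, 0.224 and 0.362 in 6 Fisher's exact tests each. Their distal shares were 79.4% to 83.1%, 8.68% to 15.1% and 66.2% to 69.7%. The SD of the distal share between libraries was 1.48 to 7.80 points among the 6 genes, with a median of 2.43, against 4.54 over those 5069 loci. The part of read depth in this spread was not tested.

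**Figure D4:**
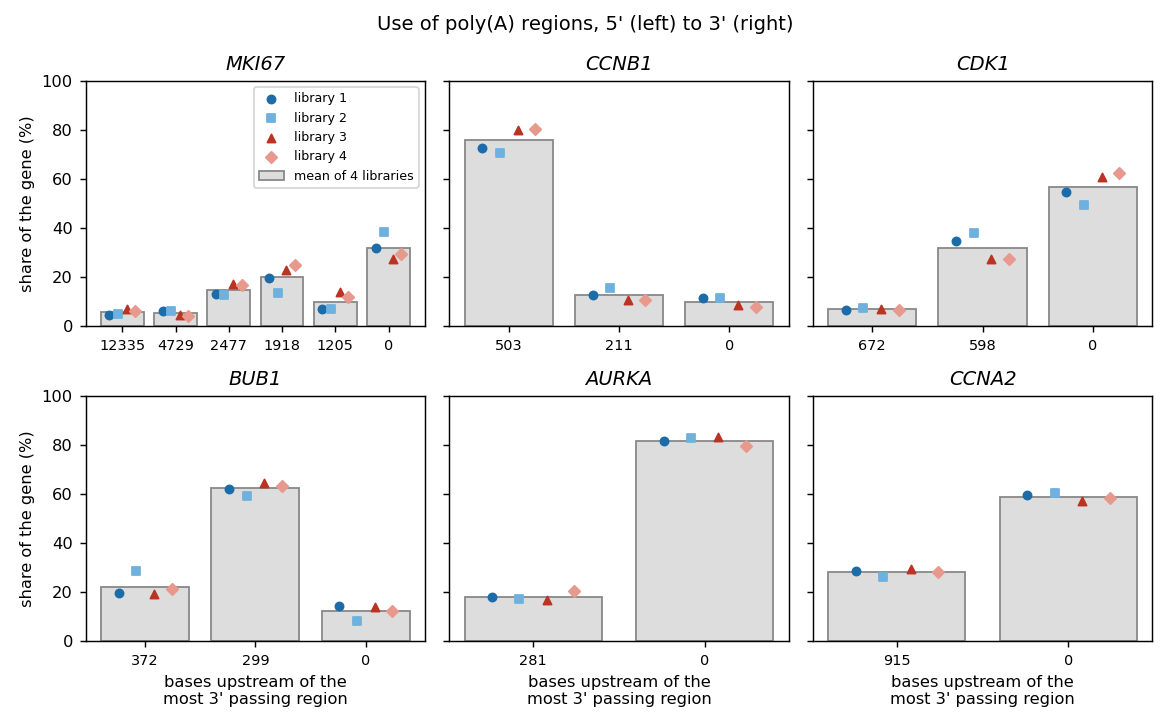
Share of the reads of each gene (percent, linear axis) in its passing regions, ordered from 5' to 3' by distance from the most 3' passing one; grey bars are means and points the 4 libraries. At the strongest region of 5 of the 6 genes, all but AURKA, libraries 1 and 2 lie on the other side of libraries 3 and 4. The libraries span 70.7% to 80.5% there for CCNB1, 49.3% to 62.6% for CDK1 and 27.3% to 38.5% for MKI67, against 59.4% to 64.5% for BUB1, 57.2% to 60.4% for CCNA2 and 79.4% to 83.1% for AURKA. For BUB1 and CCNA2 the Wilson intervals of the 4 libraries overlap. Neither gene had a pair of libraries past the threshold for its strongest region against all other reads (Fisher's exact test). The share of all loci with such a split was not counted.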

How the data were processed

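Poly(A)+ RNA of 4 libraries of a single group was sequenced at its poly(A) junctions. The deposited table gives, per the file headers, an unnormalized count for each region in each library, with its position. Bowtie2 2.2.5 and hg19 are named in the submitters' processing notes. The sources used here do not say how regions were built or whether the degenerate primer bases removed duplicates. Regions were assigned to a gene where chromosome, strand, start and end lay in its window. All regions of a window were summed and scaled to the library total (CPM). Other regions were joined into loci within 5 kb. Widths are end minus start plus 1, and the 3' end is the end of a plus-strand region and the start of a minus-strand one. Positions are printed as deposited.

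The windows, lists and thresholds were chosen with earlier results of these data known. All 9 genes and all of their passing regions were named. The planned list of further mitotic genes needs an hg19 annotation and is not reported here. Library pairs were compared by fold and by Fisher's exact test (scipy 1.17.1), thinned to 2163977 reads. The test's code was checked on simulated counts that were not thinned. Scaling alternatives used edgeR 4.0.16 and DESeq2 1.42.0. Intervals are 95% and cover counting error only. They take reads as independent molecules, which is not known here.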

Additional observations from a re-analysis of the deposited data

How the results depend on the processing

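Under TMM and DESeq2 scaling the mean level of each of the 9 genes moved by less than the SD over the libraries. With passing regions alone, MKI67 fell to 250 CPM, BUB1 to 111 and CCNA2 to 325, beyond that SD. The order of the genes within libraries also depended on this. Passing regions alone put CDK1 above CCNA2 and AURKA above TOP2A in library 2. They put TOP2A above MKI67 in libraries 1 and 2, and PLK1 above CCNA2 in library 1. The number of regions follows the minimum share. With 1%, MKI67 had 10, TOP2A 4 and CCNA2 7. With no share minimum, MKI67 had 13, TOP2A 6, CCNB1 5, CDK1 7 and CCNA2 8. With ends within 100 bases merged, CDK1 and BUB1 had 2 passing regions each instead of 3. The distal share of MKI67 was then 34.2%, within the SD of its main value. The distal share of CCNB1 was 14.2% with a 10% minimum, since its most 3' region then no longer passed. That of CCNA2 was 1.63% with a 1% minimum, since a weaker region then became the most 3' one. Differences in distal share numbered 8 of 36 tests and 12 on unthinned counts. They numbered 8 with a 10% minimum and 9 for the strongest region against all other reads. Leaving out 1 library, with 3 pairs left, gave 3 to 5 of them. Beside these counts, the share over all loci was taken for the main setting alone. Levels over 1.5-fold apart numbered 5, all CDC20, under TMM and DESeq2 scaling as well, 4 at 2-fold, and 2 to 3 without 1 library. Leave-one-out for both counts and the DESeq2 scaling of the latter were chosen after seeing the data. No paired analysis was possible because there is a single group. Dixon's criterion flagged none of 34 levels and shares, but it looks for a single extreme library and does not bear on libraries that separate as pairs.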
